A study of Mus musculus with 12 samples.

Results

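A set of 36 genes of blood vessels, pericytes and meningeal fibroblasts was followed in mouse spinal cord at postnatal day 21, in ribosome pulldowns from neurons and in whole-cord RNA taken before the immunopurification. The members were a named list of vascular and meningeal genes, matched by gene name in the deposited table of read counts. All 36 were found among 40912 gene IDs, and all 36 passed the filter on low counts, which left 15905 genes for testing. By role they comprised 15 endothelial genes, 8 genes of mural cells (pericytes and smooth muscle), 10 fibroblast genes and 3 genes of the basement membrane.

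Mice carried a bacTRAP transgene, which fuses EGFP to the ribosomal protein Rpl10a so that ribosomes of the cells expressing it can be immunopurified with the mRNA they are translating. In the line Tg(Chat-EGFP/Rpl10a)DW167Htz the sequences of Chat, the acetylcholine-synthesising enzyme of cholinergic neurons such as motor neurons, drive the tag. In the line Tg(Snap25-EGFP/Rpl10a)JD362Jdd it is driven by sequences of Snap25, a synaptic protein of neurons in general. The 4 groups were TRAP_Chat and PreIP_Chat, the pulldown and its input from the Chat line, and TRAP_Snap25 and PreIP_Snap25, the same from the Snap25 line, with 3 libraries each. Every animal sampled thus carried a tag, inputs included, and no untagged pulldown was analysed here. The labels do not say whether replicates came from different animals; the p-values speak only for variation among the libraries at hand, some of which may be technical.

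The walls of central nervous system vessels are built of endothelial cells sealed by tight junctions, which form the blood-brain and blood-spinal cord barriers. Pericytes, or smooth muscle on larger vessels, wrap them from outside within a shared basement membrane. Fibroblasts of the meninges and of the perivascular space lay down fibrillar collagen. Both transgenes are driven by neuronal sequences, and the input holds RNA of every cell of the cord. In bulk RNA of this kind, fewer cells of a type and less RNA per cell cannot be told apart.

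Library totals ran from 10149346 to 20521699 counts, and the members held 0.0598% to 0.146% of them. Levels are CPM, read counts scaled to library size and between libraries, and 3 counts, taken as the floor of detection, stood at 0.156 to 0.305 CPM. The summed level of 7 genes of cholinergic motor neurons was 2609 ± 617 CPM in TRAP_Chat and 310.2 ± 10.9 CPM in PreIP_Chat (SD, n = 3 each). The same 7 genes summed to 340.3 ± 147.1 CPM in TRAP_Snap25 and 167.3 ± 41.4 CPM in PreIP_Snap25. A set of 8 genes of neurons summed to 29464 ± 5432 CPM in TRAP_Chat and 12719 ± 1078 CPM in PreIP_Chat, with a median log2 fold change of 1.41. In the Snap25 line these 8 genes differed less. They summed to 24646 ± 989 CPM in TRAP_Snap25 and 17229 ± 1123 CPM in PreIP_Snap25, with a median log2 fold change of 0.27. Genes of the mitochondrial genome took 0.225% to 6.94% of counts in the 6 pulldown libraries, with TRAP_Chat replicate 1 the highest and the other 5 at most at 0.721%, and 23.7% to 41.3% in the 6 inputs.

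Promoter windows of 250 bases upstream to 50 bases downstream were available from RefSeq (GRCm38.p6) for 25 of the 36 members, some with several starts. The letters AGGAAG, read on both strands and holding the GGAA core that ETS-family transcription factors bind, occurred in the upstream 250 bases of 8 of 14 endothelial windows (57.1%), of 9 of 31 windows of all members (29.0%) and of 9686 of 32851 windows of all genes (29.5%). The 6 endothelial stretches below are all those that touch no annotated exon, and give the last 120 bases before the start, 5′ to 3′ on the gene's strand, with AGGAAG or its complement CTTCCT in capitals. Flt1 encodes a receptor for vascular endothelial growth factor (VEGF), Abcb1a the efflux pump P-glycoprotein, Slco1a4 an organic anion transporter and Cldn5 the main claudin of the barrier's tight junctions. Tek encodes the angiopoietin receptor, and Ly6c1 a surface antigen of endothelium, shown here at the one of its starts whose stretch is free of exons.
Flt1, chr5:147726012-147726131, minus strand: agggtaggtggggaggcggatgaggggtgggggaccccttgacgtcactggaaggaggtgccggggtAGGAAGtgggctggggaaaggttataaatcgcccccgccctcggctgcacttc
Abcb1a, chr5:8566971-8567090, plus strand: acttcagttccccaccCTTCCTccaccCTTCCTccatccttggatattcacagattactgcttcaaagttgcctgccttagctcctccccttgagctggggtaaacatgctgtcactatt
Slco1a4, chr6:141856221-141856340, minus strand: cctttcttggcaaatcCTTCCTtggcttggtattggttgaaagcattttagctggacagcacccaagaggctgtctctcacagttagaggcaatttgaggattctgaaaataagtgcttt
Cldn5, chr16:18776727-18776846, plus strand: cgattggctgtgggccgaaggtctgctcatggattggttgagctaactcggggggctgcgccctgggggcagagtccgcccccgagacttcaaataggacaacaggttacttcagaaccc
Tek, chr4:94739169-94739288, plus strand: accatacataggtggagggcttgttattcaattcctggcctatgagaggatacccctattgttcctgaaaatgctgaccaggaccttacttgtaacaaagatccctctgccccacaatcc
Ly6c1, chr15:75048838-75048957, minus strand: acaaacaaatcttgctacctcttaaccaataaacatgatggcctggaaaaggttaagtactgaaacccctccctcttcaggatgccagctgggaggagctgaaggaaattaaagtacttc
Of these stretches Flt1, Abcb1a and Slco1a4 hold the letters, and Cldn5, Tek and Ly6c1 do not. A match describes the letters only.

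In the input all 36 members had counts in every library. Levels per length of exon, which allow genes to be set side by side, ranged over about 3 orders of magnitude in CPM per kb. Bsg (basigin, a membrane partner of lactate transporters that many cell types make) stood first in PreIP_Chat, at 220.4 ± 27.0 CPM per kb (SD, n = 3), and Ptgds (prostaglandin D synthase of the leptomeninges, also made by oligodendrocytes) followed at 146.2 ± 51.1 CPM per kb. Slc2a1 (the glucose transporter GLUT1) had 20.7 ± 5.32 and Col1a1 (a chain of type I collagen) 18.3 ± 14.5 CPM per kb there. Single libraries of Bsg and Ptgds overlapped, as did those of Slc2a1 and Col1a1. At the bottom lay Kdr (a VEGF receptor) at 0.286 ± 0.134, Lama1 (a laminin chain) at 0.255 ± 0.137 and Tie1 (a relative of the angiopoietin receptor) at 0.161 ± 0.110 CPM per kb, which overlapped. The order was much the same in PreIP_Snap25, where Bsg, Ptgds, Slc2a1 and Col1a1 again led and Tie1 was again last.

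**Figure D1:**
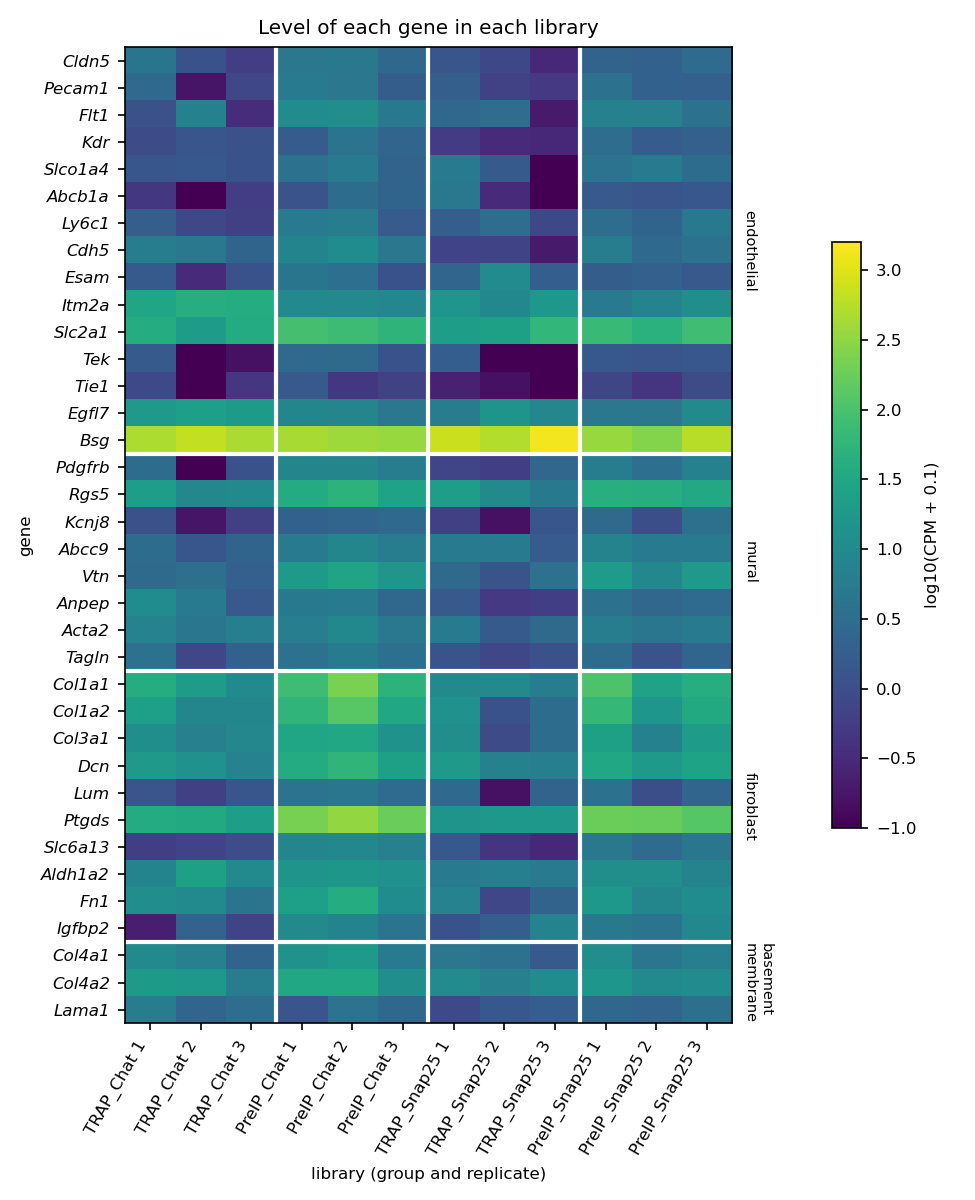
Level of the 36 members (rows, grouped by role) in the 12 libraries (columns), coloured by log10 of CPM plus 0.1. Bsg is the brightest row in every library, the rows of Col1a1, Ptgds and Slc6a13 are darker in both pulldowns than in the inputs, and the darkest cells, at 0 counts, all lie in pulldown libraries.

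In TRAP_Chat against PreIP_Chat, which asks what the cholinergic pulldown enriches, 12 of 36 members fell and 2 rose. Over all tested genes 14.3% fell and 12.6% rose. The median log2 fold change of the members was −1.57, against −0.06 over all tested genes, and 5 of 36 members were above 0. The falls were spread over the roles as 2 of 15 endothelial, 4 of 8 mural, 6 of 10 fibroblast and 0 of 3 basement membrane genes, and both rises were endothelial.

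Itm2a, a membrane protein gene enriched in brain endothelium, had 31.0, 40.8 and 39.8 CPM in the TRAP_Chat libraries, against 9.71, 9.74 and 8.62 CPM in PreIP_Chat. All pulldown libraries lay above all inputs, and Itm2a rose (log2 fold change 1.99 ± 0.33 SE, edgeR adjusted p = 0.000577), also with any single library left out. Egfl7, a secreted endothelial factor gene, had 18.5, 23.2 and 19.7 CPM in TRAP_Chat and 8.24, 8.19 and 4.60 CPM in PreIP_Chat. It too rose with no overlap between the groups (1.54 ± 0.41, adjusted p = 0.0107). Without PreIP_Chat replicate 3, its lowest library, the change was 1.31 with an adjusted p of 0.0597. Exons of Egfl7 share 264 bases with a predicted gene on the same strand and stretches with Agpat2 and 2 miRNA genes, and the strand setting of the counting is not known, so its counts carry that uncertainty.

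Bsg, the member with the highest counts, had 488.0, 655.0 and 471.0 CPM in TRAP_Chat and 454.3, 385.7 and 359.6 CPM in PreIP_Chat. Its log2 fold change of 0.43 ± 0.33 did not pass the test (adjusted p = 0.355). Slc2a1 fell, with 39.4, 20.6 and 37.6 CPM in TRAP_Chat against 90.0, 75.0 and 53.0 CPM in PreIP_Chat (−1.16 ± 0.37, adjusted p = 0.0300). Ly6c1, whose counts may be shared with the near-identical Ly6c2, had 1.79, 0.680 and 0.521 CPM in TRAP_Chat and 5.25, 5.81 and 1.53 CPM in PreIP_Chat. It fell although the groups overlapped (−2.06 ± 0.71, adjusted p = 0.0405). Both calls were lost without TRAP_Chat replicate 2 or 3 or without PreIP_Chat replicate 1 or 2, when the adjusted p lay between 0.0502 and 0.138 for Slc2a1 and between 0.113 and 0.142 for Ly6c1.

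The defining endothelial genes Cldn5, Pecam1, Flt1, Kdr, Slco1a4, Abcb1a, Cdh5, Esam, Tek and Tie1 had log2 fold changes of −2.82 to −0.88, none past the threshold. None exceeded 11.8 CPM in any library. Some alternatives called a few of these genes lower. With limma voom these were Pecam1, Flt1, Abcb1a and Tek (adjusted p 0.0147 to 0.0484), beside 2840 of 15905 tested genes. Without TRAP_Chat replicate 1 they were Cldn5, Pecam1 and Tek (edgeR adjusted p 0.0209 to 0.0317), beside 2199 of 16496 tested genes. Flt1 had 0.989, 6.88 and 0.260 CPM in TRAP_Chat and 10.7, 11.8 and 4.97 CPM in PreIP_Chat, so 1 pulldown library lay within the range of the inputs. TRAP_Chat replicate 2 had no count of Abcb1a, Tek, Tie1 or the mural gene Pdgfrb, where 3 counts would have been 0.227 CPM. All 15 endothelial genes summed to 643.4 ± 98.0 CPM in TRAP_Chat and 531.8 ± 80.3 CPM in PreIP_Chat (SD, n = 3 each). Without Bsg and Slc2a1 it was 72.9 ± 6.55 CPM in TRAP_Chat and 59.3 ± 19.3 CPM in PreIP_Chat. Without Itm2a and Egfl7 as well, the libraries summed to 21.3, 16.2 and 8.02 CPM in TRAP_Chat. In PreIP_Chat they summed to 48.4, 56.1 and 24.3 CPM. These 4 genes were set aside after their values were seen. They include both genes that rose, so the lower sum is not separate support for a fall.

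Among mural genes Vtn fell most. This gene of vitronectin, an adhesive glycoprotein that pericytes of the central nervous system make, had 2.72, 3.40 and 1.82 CPM in TRAP_Chat and 19.0, 28.2 and 15.4 CPM in PreIP_Chat (−2.98 ± 0.47, adjusted p = 0.000375). Pdgfrb, the platelet-derived growth factor receptor that defines pericytes, had 2.90, 0 and 1.04 CPM in TRAP_Chat against 8.12, 8.08 and 5.82 CPM in PreIP_Chat (−2.46 ± 0.85, adjusted p = 0.0418). Every pulldown library lay below every input for both genes. Abcc9, a subunit of the ATP-sensitive potassium channel of pericytes, had 2.90, 1.21 and 2.13 CPM in TRAP_Chat and 5.25, 8.53 and 5.61 CPM in PreIP_Chat (−1.62 ± 0.52, adjusted p = 0.0287). Rgs5, a regulator of G-protein signalling, had 22.4, 8.61 and 10.1 CPM in TRAP_Chat and 38.5, 51.2 and 27.0 CPM in PreIP_Chat (−1.50 ± 0.45, adjusted p = 0.0210). Groups did not overlap for these either. Only the Vtn call held with any single library left out. Rgs5 missed the threshold without TRAP_Chat replicate 2 or 3 or PreIP_Chat replicate 2 (adjusted p 0.0802 to 0.0937), Abcc9 without those or PreIP_Chat replicate 3 (0.0544 to 0.118), and Pdgfrb without any library but TRAP_Chat replicate 1 (0.0616 to 0.110).

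Other mural genes did not pass. Anpep (aminopeptidase N), the mural gene above 0, had 10.9, 5.21 and 1.41 CPM in TRAP_Chat and 4.82, 5.32 and 2.38 CPM in PreIP_Chat, a wide spread that spanned the inputs (0.49 ± 0.65, adjusted p = 0.616). The smooth muscle genes Acta2 and Tagln were at −0.14 ± 0.47 and −0.93 ± 0.63, and the channel gene Kcnj8 at −2.05 ± 0.91. Tagln shares 1241 of its 1988 exon bases with an antisense gene, so its counts are uncertain.

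Fibroblast genes made up 6 of the 12 falls. Slc6a13, a GABA transporter of the leptomeninges, had 0.494, 0.604 and 0.885 CPM in TRAP_Chat and 8.49, 9.02 and 6.56 CPM in PreIP_Chat (−3.58 ± 0.63, adjusted p = 0.000832). Ptgds had 38.7, 35.7 and 21.9 CPM in TRAP_Chat against 214.6, 335.5 and 173.3 CPM in PreIP_Chat (−2.91 ± 0.30, adjusted p = 1.16e-05). The groups lay far apart for both genes, and both calls held with any library left out. Igfbp2, an insulin-like growth factor binding protein gene, had 0.124, 1.96 and 0.625 CPM in TRAP_Chat and 9.89, 7.81 and 3.86 CPM in PreIP_Chat (−3.01 ± 0.83, adjusted p = 0.0139). It missed the threshold without TRAP_Chat replicate 3 or PreIP_Chat replicate 1, at an adjusted p of at most 0.0531.

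Type I collagen was high and uneven in the input. Col1a1 had 39.9, 21.0 and 9.58 CPM in TRAP_Chat and 79.3, 228.8 and 52.2 CPM in PreIP_Chat (−2.35 ± 0.59, adjusted p = 0.00793). Col1a2, its partner chain, had 23.1, 8.46 and 8.33 CPM in TRAP_Chat and 56.4, 128.3 and 33.4 CPM in PreIP_Chat (−2.45 ± 0.72, adjusted p = 0.0190). Both fell with no overlap, and PreIP_Chat replicate 2 was the highest library for each. Without it the changes were −1.49 (adjusted p = 0.0693) and −1.76 (adjusted p = 0.110). Col1a2 also missed the threshold without TRAP_Chat replicate 2 (adjusted p = 0.0768) or 3 (0.0745). Dcn, the gene of the collagen-binding proteoglycan decorin, had 18.4, 13.1 and 7.24 CPM in TRAP_Chat and 38.8, 56.3 and 23.9 CPM in PreIP_Chat (−1.62 ± 0.45, adjusted p = 0.0139). It missed the threshold without TRAP_Chat replicate 3 (adjusted p = 0.0610) or PreIP_Chat replicate 2 (0.0773).

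Of the remaining fibroblast genes Col3a1, Lum and Fn1, for type III collagen, the proteoglycan lumican and fibronectin, had log2 fold changes of −1.88 to −1.45 that did not pass. Aldh1a2, the retinoic acid-synthesising enzyme of the meninges, which embryonic motor neurons of the limb levels also make, was at −0.09 ± 0.39, with 7.66, 24.2 and 10.2 CPM in TRAP_Chat around 13.1 to 16.7 CPM in PreIP_Chat. Basement membrane genes did not pass either. Col4a1 and Col4a2, the chains of type IV collagen, were at −1.04 ± 0.58 and −0.85 ± 0.44. Lama1 was at 0.60 ± 0.59, with 5.99, 2.27 and 3.02 CPM in TRAP_Chat and 1.16, 3.82 and 2.43 CPM in PreIP_Chat, which overlap.

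The input library without which the most calls were lost also stood out by other genes. Within PreIP_Chat, replicate 2 was the highest of the 3 libraries for 26 of 36 members and replicate 3 the lowest for 30. Genes of skeletal muscle, a tissue outside the cord, summed to 267.1 CPM in PreIP_Chat replicate 2, against 3.18 and 27.2 CPM in replicates 1 and 3, and within TRAP_Chat to 42.5 CPM in replicate 2 against 0.742 and 3.80 CPM. Without PreIP_Chat replicate 2, or without TRAP_Chat replicate 3, 4 members were called lower, and 7 without TRAP_Chat replicate 2. Vtn, Ptgds and Slc6a13 were among these members each time. Over all tested genes 1547 of 16475, 1993 of 16539 and 1616 of 16550 were lower in these fits, in that order. With all libraries it was 2268 of 15905. Without PreIP_Chat replicate 1 or 3, 8 and 10 members were lower, beside 1631 of 16492 and 1571 of 16462 tested genes. TRAP_Chat replicate 1, the pulldown with the most mitochondrial counts, was the highest of its group for 24 of 36 members and had 5207 CPM of oligodendrocyte genes, against 1835 and 2652 CPM in replicates 2 and 3. Without it 15 members fell and 2 rose, beside 2199 and 1715 of 16496 tested genes. The part of these in the calls was not tested.

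**Figure D2:**
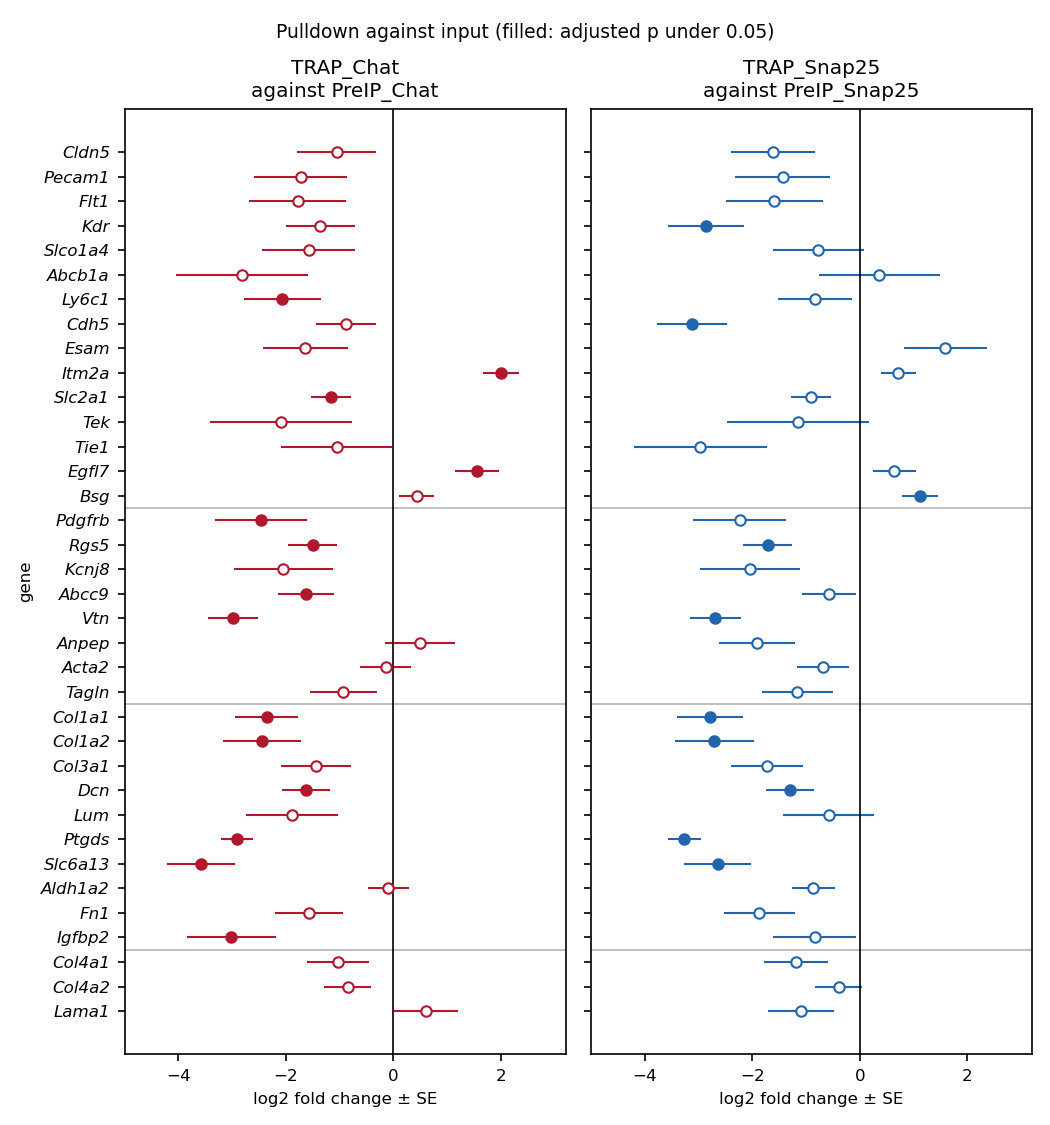
Log2 fold change (x axis, bars show the standard error) of each member (y axis, grouped by role) in TRAP_Chat against PreIP_Chat on the left and TRAP_Snap25 against PreIP_Snap25 on the right; filled points passed an adjusted p of 0.05. Fibroblast points lie left of 0 in both panels, and Itm2a and Egfl7 are the filled points right of 0 on the left, as Bsg is on the right.

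In TRAP_Snap25 against PreIP_Snap25, the same question for neurons in general, 9 of 36 members fell and 1 rose, beside 12.7% and 9.69% of all tested genes. The median log2 fold change of the members was −1.24, against 0.00 over all tested genes. The falls were 2 of 15 endothelial, 2 of 8 mural, 5 of 10 fibroblast and 0 of 3 basement membrane genes, and the rise was endothelial.

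Cdh5, the gene of the endothelial cadherin of adherens junctions, fell most among endothelial genes. It had 0.588, 0.614 and 0.102 CPM in TRAP_Snap25 and 5.94, 2.59 and 3.52 CPM in PreIP_Snap25 (−3.12 ± 0.65, adjusted p = 0.00350). Kdr had 0.441, 0.223 and 0.203 CPM in TRAP_Snap25 and 3.08, 1.55 and 1.82 CPM in PreIP_Snap25 (−2.86 ± 0.71, adjusted p = 0.00959). Groups did not overlap, and both calls held with any library left out, at pulldown levels that are only a few reads.

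Bsg rose instead. It had 720.0, 517.8 and 1329.8 CPM in TRAP_Snap25 and 361.3, 264.2 and 555.5 CPM in PreIP_Snap25 (1.12 ± 0.33, adjusted p = 0.0230). The lowest pulldown library lay below the highest input. Without TRAP_Snap25 replicate 3, its highest library, the change was 0.64 (adjusted p = 0.111), and without PreIP_Snap25 replicate 1 or 2 the adjusted p was 0.0862 and 0.115. In that replicate 3 Bsg alone made 88.4% of the summed level of all members. Itm2a had 15.1, 8.88 and 17.1 CPM in TRAP_Snap25 and 5.44, 7.64 and 11.9 CPM in PreIP_Snap25, groups that overlap, and did not pass (0.72 ± 0.33, adjusted p = 0.130), but did without PreIP_Snap25 replicate 3 (1.05, adjusted p = 0.0476). Egfl7 was at 0.64 ± 0.41 (adjusted p = 0.277).

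Esam, an adhesion molecule of endothelial tight junctions, was the member with the highest log2 fold change, 1.59 ± 0.77, which did not pass (adjusted p = 0.150). It had 2.20, 10.5 and 1.73 CPM in TRAP_Snap25 and 1.65, 1.81 and 1.37 CPM in PreIP_Snap25, so replicate 2 alone stood high. Abcb1a, whose counts may be shared with its close copy Abcb1b, was at 0.36 ± 1.12 and had 4.70, 0.223 and 0 CPM in TRAP_Snap25 and 1.37, 1.17 and 1.30 CPM in PreIP_Snap25, again with 1 high library, here replicate 1. Slco1a4, Abcb1a, Tek and Tie1 had no count in TRAP_Snap25 replicate 3, where 3 counts would have been 0.305 CPM. The other endothelial genes had log2 fold changes of −2.97 to −0.77. The endothelial genes without Bsg, Slc2a1, Itm2a and Egfl7, a set chosen after values were seen, did not overlap in sum here either. They summed to 22.4, 20.5 and 3.46 CPM in TRAP_Snap25 and to 33.7, 26.4 and 26.4 CPM in PreIP_Snap25.

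Vtn and Rgs5 fell among mural genes. Vtn had 2.72, 1.12 and 3.76 CPM in TRAP_Snap25 and 20.9, 8.93 and 18.3 CPM in PreIP_Snap25 (−2.69 ± 0.47, adjusted p = 0.00119). Rgs5 had 21.6, 9.32 and 4.88 CPM in TRAP_Snap25 and 42.9, 41.4 and 33.7 CPM in PreIP_Snap25 (−1.72 ± 0.46, adjusted p = 0.0136). Every pulldown library lay below every input for both. Rgs5 was at an adjusted p of 0.0521 without TRAP_Snap25 replicate 2. Pdgfrb, with 0.661, 0.502 and 2.34 CPM in TRAP_Snap25 and 5.77, 3.37 and 6.84 CPM in PreIP_Snap25, did not pass (−2.23 ± 0.87, adjusted p = 0.0744), and all 8 mural genes had log2 fold changes below 0.

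Among fibroblast genes Ptgds had 14.5, 17.0 and 17.3 CPM in TRAP_Snap25 and 179.2, 167.6 and 121.6 CPM in PreIP_Snap25 (−3.26 ± 0.30, adjusted p = 2.85e-05). Slc6a13 had 1.32, 0.335 and 0.203 CPM in TRAP_Snap25 and 4.67, 2.85 and 4.37 CPM in PreIP_Snap25 (−2.64 ± 0.63, adjusted p = 0.00711). Col1a1 had 9.77, 9.43 and 5.90 CPM in TRAP_Snap25 and 106.3, 26.4 and 41.5 CPM in PreIP_Snap25 (−2.79 ± 0.61, adjusted p = 0.00454). All 3 fell with no overlap, with any library left out. Col1a2 had 13.4, 1.06 and 2.95 CPM in TRAP_Snap25 and 62.5, 16.1 and 35.1 CPM in PreIP_Snap25 (−2.70 ± 0.74, adjusted p = 0.0160), and without PreIP_Snap25 replicate 1, its highest library, it was at −2.14 (adjusted p = 0.0798). Dcn had 19.0, 7.03 and 6.10 CPM in TRAP_Snap25 and 33.1, 18.6 and 27.4 CPM in PreIP_Snap25 (−1.30 ± 0.45, adjusted p = 0.0467). That call was the weakest of them: the groups overlapped, it was lost without any library but TRAP_Snap25 replicate 1 (adjusted p 0.0554 to 0.157), and scaling without mitochondrial genes gave 0.0505.

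Fn1 stood just outside at −1.87 ± 0.66 (adjusted p = 0.0502), with 7.27, 0.670 and 2.03 CPM in TRAP_Snap25 and 17.0, 8.42 and 10.9 CPM in PreIP_Snap25. The basement membrane genes lay at −1.19 to −0.40. Within PreIP_Snap25, replicate 1 was the highest library for 23 of 36 members and also held the most skeletal muscle RNA, 48.5 CPM against 4.60 and 9.65 CPM in replicates 2 and 3. Replicate 2 was the lowest for 26 members and had the largest share of mitochondrial counts of all libraries. Their part in the falls was not tested.

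The 2 pulldowns, which share no library, had 7 members lower in both: Rgs5, Vtn, Col1a1, Col1a2, Dcn, Ptgds and Slc6a13. They are 58.3% of the 12 members that fell in TRAP_Chat and 77.8% of the 9 that fell in TRAP_Snap25. Over all tested genes, the 1222 that fell in both were 53.9% of those that fell in TRAP_Chat and 60.6% of those that fell in TRAP_Snap25, so the overlap is not called particular to the members. The summed level of the 10 fibroblast genes was 115.9 ± 40.6 CPM in TRAP_Chat and 557.1 ± 270.9 CPM in PreIP_Chat, and 61.0 ± 22.3 CPM in TRAP_Snap25 and 330.6 ± 102.1 CPM in PreIP_Snap25 (SD, n = 3 each). For the 8 mural genes it was 34.2 ± 16.9 CPM in TRAP_Chat and 90.6 ± 25.5 CPM in PreIP_Chat, and 25.1 ± 11.6 CPM in TRAP_Snap25 and 79.2 ± 12.3 CPM in PreIP_Snap25. Neither sum overlapped between pulldown and input in either line. Of the fibroblast sum, Ptgds, which oligodendrocytes also make, alone held 241.1 ± 84.3 CPM in PreIP_Chat and 156.1 ± 30.5 CPM in PreIP_Snap25. Red blood cell genes, which sit inside the vessels, summed to 77.0 ± 27.2 CPM in TRAP_Chat and 349.6 ± 132.3 CPM in PreIP_Chat, and to 46.2 ± 9.94 CPM in TRAP_Snap25 and 390.0 ± 42.6 CPM in PreIP_Snap25. All 5 of them fell in both lines, as did all 8 oligodendrocyte and all 8 astrocyte genes. Over all tested genes 14.3% fell in TRAP_Chat and 12.7% in TRAP_Snap25. Other lists fell in part. In each line 7 of 8 microglia genes and 2 of 5 perivascular macrophage genes fell. In TRAP_Chat 5 of 6 Schwann cell, 2 of 4 ependymal and 2 of 6 skeletal muscle genes fell. In TRAP_Snap25 it was 4 of 6, 1 of 4 and 0 of 6.

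**Figure D3:**
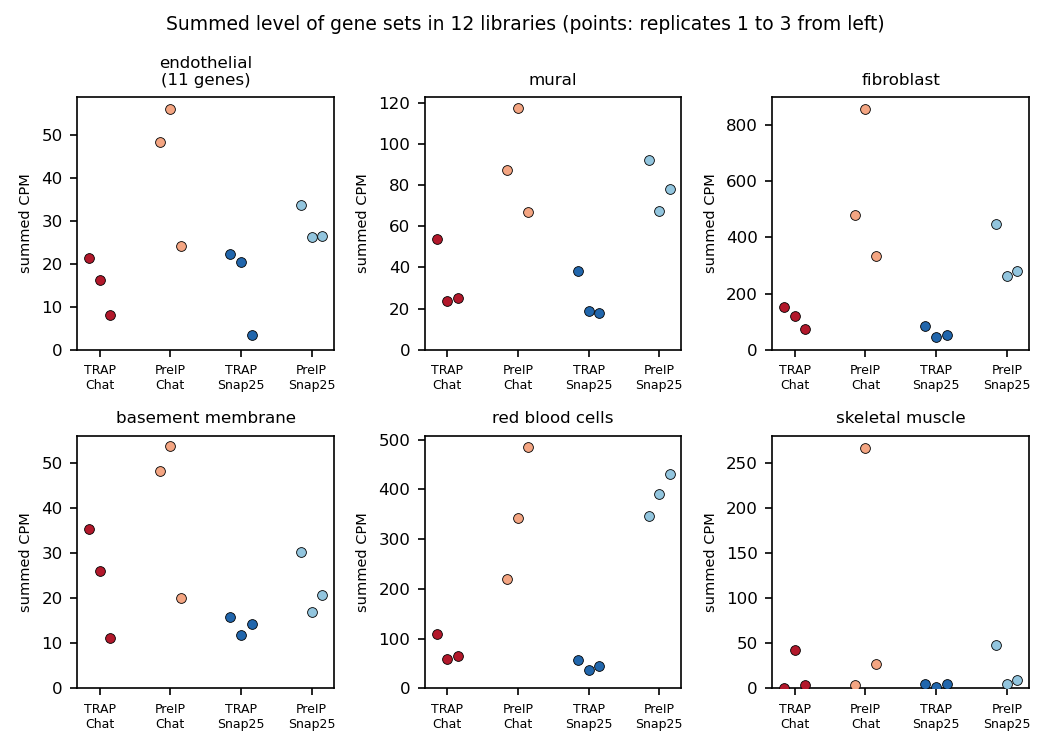
Summed CPM (y axis) of the endothelial members without Bsg, Slc2a1, Itm2a and Egfl7, of the mural, fibroblast and basement membrane members, and of red blood cell and skeletal muscle genes in the 12 libraries (x axis, groups; points are replicates 1 to 3 from left). Pulldown points lie below their inputs in the endothelial, mural, fibroblast and blood panels, and PreIP_Chat replicate 2 is the top point for fibroblast and muscle genes. The genes left out of the endothelial panel were set aside after their values were seen. With all 15 endothelial members the mean sum was higher in the pulldowns.

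As a percentage of the mean input of its line, the median member was at 49.7%, 26.6% and 24.6% in the TRAP_Chat libraries and at 53.9%, 25.2% and 20.3% in the TRAP_Snap25 libraries. Itm2a stood at 331.5%, 436.0% and 425.5% of its input in TRAP_Chat and at 182.0%, 106.7% and 205.5% in TRAP_Snap25. Egfl7 stood at 264.4%, 330.8% and 280.6% in TRAP_Chat and at 95.2%, 234.0% and 136.7% in TRAP_Snap25. Bsg stood at 122.0%, 163.8% and 117.8% in TRAP_Chat and at 182.9%, 131.5% and 337.8% in TRAP_Snap25. Itm2a, Egfl7 and Bsg were thus above their mean input in all TRAP_Chat libraries, where most members were at a fraction of it.

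TRAP_Chat against TRAP_Snap25 sets the cholinergic pulldown against that of neurons in general, across 2 lines, and uses the same pulldown libraries as above. Here 4 of 36 members were higher and 0 lower, beside 3.97% and 2.77% of all tested genes. The median log2 fold change of the members was 0.52, against 0.01 over all tested genes, and 25 of 36 were above 0. Between the inputs of the lines the median of the members was also 0.52, with 32 of 36 above 0. Esam and Igfbp2, 2 members, were lower at an unadjusted p under 0.05 in edgeR. Of all 15905 tested genes, 3445 were under that p in edgeR, counting higher and lower genes. DESeq2 called 5 members higher and 1 lower, and limma voom 2 higher and 0 lower. Over all 15905 tested genes DESeq2 called 1026 higher and 746 lower, and limma voom 680 and 458. Cdh5, with 5.75, 4.68 and 2.13 CPM in TRAP_Chat against 0.588, 0.614 and 0.102 CPM in TRAP_Snap25, differed most (3.17 ± 0.65, adjusted p = 0.00749). Anpep had 10.9, 5.21 and 1.41 CPM in TRAP_Chat and 1.40, 0.391 and 0.509 CPM in TRAP_Snap25 (2.92 ± 0.73, adjusted p = 0.0221), so the lowest library of one nearly met the highest of the other. Itm2a was higher by 1.45 ± 0.33 (adjusted p = 0.0139) and Ptgds by 0.98 ± 0.28 (adjusted p = 0.0478), from the levels given above and with no overlap. Ptgds also had a higher mean in PreIP_Chat, 241.1 ± 84.3 CPM, than in PreIP_Snap25, 156.1 ± 30.5 CPM (SD, n = 3 each), where single libraries overlapped.

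Several of these calls rest on single libraries or on the fit. In a fit of the pulldowns alone Cdh5 (adjusted p = 0.0781), Anpep (0.107) and Ptgds (0.179) missed the threshold, and limma voom lost Anpep (0.0992) and Ptgds (0.114). Cdh5 kept its call with any library left out. Itm2a was at 1.21 (adjusted p = 0.0566) without TRAP_Snap25 replicate 2. Anpep was at 2.09 (0.0977) without TRAP_Chat replicate 1 and at 2.58 (0.0786) without TRAP_Snap25 replicate 2. Ptgds missed the threshold without any library but TRAP_Chat replicate 3 (0.0537 to 0.144). Without TRAP_Snap25 replicate 2, 1 member was called higher, beside 355 of 16559 tested genes. Esam, at −2.41 ± 0.80, did not pass (adjusted p = 0.0817) and passed without TRAP_Snap25 replicate 3 (−2.81, adjusted p = 0.0364); Aldh1a2 was at 1.30 ± 0.40 (adjusted p = 0.0618).

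**Figure D4:**
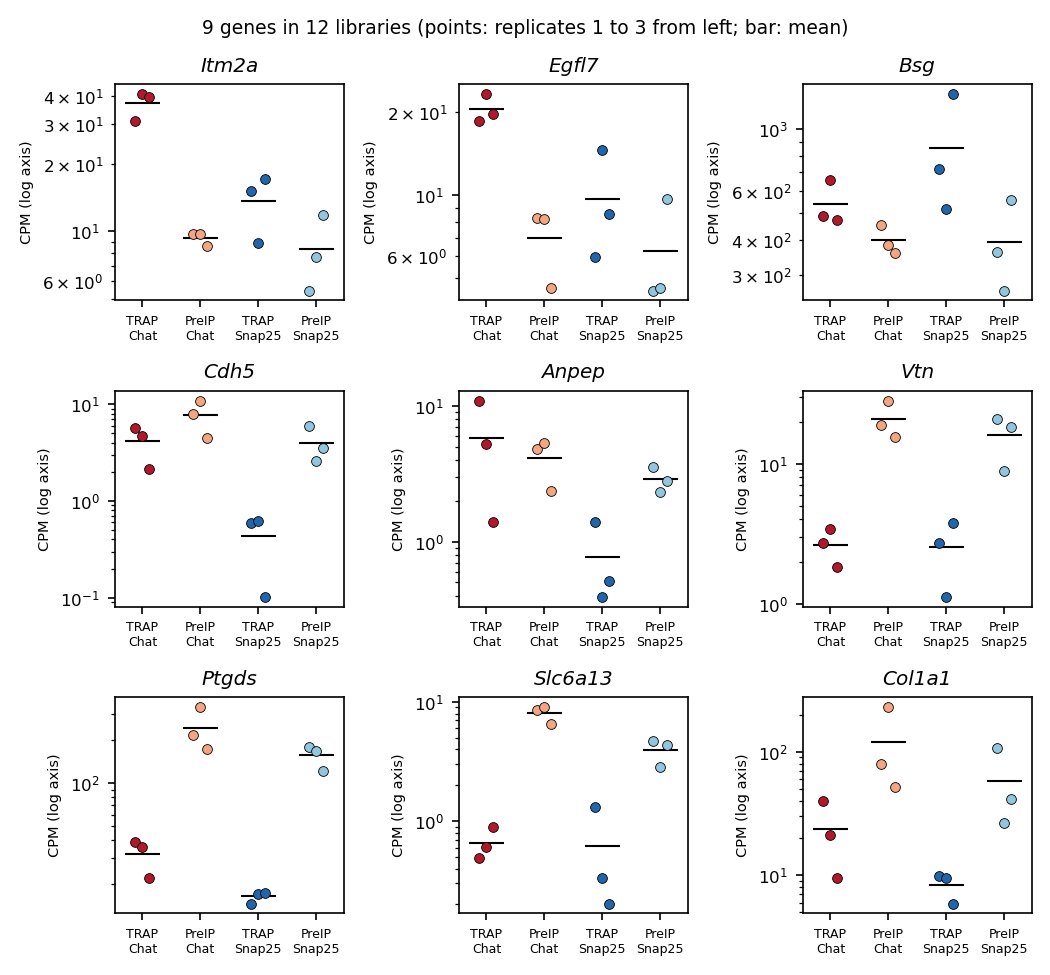
CPM (y axis, log scale, which differs between panels) of 9 members in the 4 groups (x axis); points are the 3 replicates and the bar is their mean. Itm2a and Egfl7 lie highest in TRAP_Chat, Cdh5 lowest in TRAP_Snap25, and Vtn, Ptgds, Slc6a13 and Col1a1 are lower in both pulldowns than in their inputs.

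The test of whether the change from input to pulldown differs between the lines called 0 of 36 members in either direction, beside 0.604% of all tested genes with the larger change in Chat and 0.44% with the smaller. DESeq2 and limma voom also called 0 members. Over all 15905 tested genes DESeq2 called 292 higher and 209 lower, and limma voom 113 and 106. In edgeR 4 members were at an unadjusted p under 0.05, beside 1833 of all tested genes. These were Esam (−3.23 ± 1.10, adjusted p = 0.217), Itm2a (1.27 ± 0.46, adjusted p = 0.259), Cdh5 (2.23 ± 0.84, adjusted p = 0.289) and Anpep (2.40 ± 0.96, adjusted p = 0.323). Members called in 1 line and not in the other, such as Egfl7 or Kdr, are therefore not shown to differ between the lines.

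The inputs, PreIP_Chat against PreIP_Snap25, compare whole cord of the lines. Here 0 of 36 members and 0% of all tested genes in either direction passed in edgeR, with 133 genes at an unadjusted p under 0.05, 2 of them members (Col4a2 and Ptgds). DESeq2 called 1 gene, not a member, and limma voom 0. Of the members, 32 of 36 had log2 fold changes above 0, with a median of 0.52, against 0.00 over all tested genes. For fibroblast genes it was 10 of 10, with a median of 0.64. Slc6a13 had 8.49, 9.02 and 6.56 CPM in PreIP_Chat and 4.67, 2.85 and 4.37 CPM in PreIP_Snap25, without overlap (1.02 ± 0.56, not past the threshold). Skeletal muscle genes had 6 of 6 above 0 with a median of 2.40, and their summed level was 99.2 ± 145.9 CPM in PreIP_Chat and 20.9 ± 24.0 CPM in PreIP_Snap25. Their part in the values of the members was not tested.

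Further genes of the same cells, from lists drawn up by role, were tested in the same fits. In TRAP_Chat against PreIP_Chat 4 of 24 other endothelial genes fell and 2 rose, 6 of 16 other mural genes fell and 1 rose, 9 of 20 other fibroblast genes fell and 0 rose, and 7 of 13 other basement membrane genes fell and 0 rose. Over all tested genes 14.3% fell and 12.6% rose, near the endothelial shares. In TRAP_Snap25 against PreIP_Snap25 the falls were 5 of 24, 8 of 16, 10 of 20 and 5 of 13, with 0 rises, beside 12.7% lower and 9.69% higher over all tested genes.

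Of the other endothelial genes, Ramp2, a receptor partner for adrenomedullin, had 30.4, 23.8 and 23.5 CPM in TRAP_Chat and 7.94, 8.14 and 5.66 CPM in PreIP_Chat (1.84 ± 0.33, adjusted p = 0.000864). Abcg2, a drug efflux pump of the barrier, had 15.9, 21.4 and 11.6 CPM in TRAP_Chat and 6.96, 7.81 and 8.73 CPM in PreIP_Chat (1.06 ± 0.33, adjusted p = 0.0272). Groups did not overlap in these rises. Mfsd2a, the barrier's lipid transporter, fell (−2.08 ± 0.44, adjusted p = 0.00277), as did Ptprb, the endothelial receptor phosphatase (−2.12 ± 0.68, adjusted p = 0.0284). In TRAP_Snap25 against PreIP_Snap25 Mfsd2a (−1.86), Ptprb (−2.10) and Abcg2 (−1.04, adjusted p = 0.0368) fell. The change of Abcg2 differed between the lines (2.10 ± 0.48, adjusted p = 0.0425).

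Among the other mural genes Mcam, an adhesion molecule of pericytes and endothelium, had 119.6, 210.2 and 189.4 CPM in TRAP_Chat and 48.8, 38.3 and 37.1 CPM in PreIP_Chat (2.06 ± 0.27, adjusted p = 8.33e-05), and in TRAP_Snap25 it had 38.2, 30.3 and 43.3 CPM. Its change differed between the lines (2.18 ± 0.37, adjusted p = 0.00855). Cspg4, which encodes the pericyte and oligodendrocyte precursor proteoglycan NG2, fell in TRAP_Chat (−2.02) and Heyl, a Notch target, fell too (−1.95). Heyl (−3.42) and the receptor Notch3 (−2.72) fell in TRAP_Snap25. Of matrix and fibroblast genes, Islr (−3.38), Ogn (−3.17), the laminin chain gene Lamb2 (−3.57) and the perlecan gene Hspg2 (−2.60) fell in TRAP_Chat. In TRAP_Snap25 the transporter gene Slc13a3 (−2.81), the complement inhibitor gene Serping1 (−2.43), the matrix protein gene Sparc (−3.01) and Hspg2 (−2.83) fell. Igf2, a growth factor of the meninges, was higher in TRAP_Chat than in TRAP_Snap25 (1.88 ± 0.51, adjusted p = 0.0349), with 148.9, 25.0 and 32.4 CPM in TRAP_Chat, of which replicate 1 stands apart, and 21.2, 13.6 and 21.4 CPM in TRAP_Snap25.

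Zic1, a transcription factor of meningeal cells that dorsal spinal neurons also make, was the listed gene with a lower change in Chat. It had 6.43, 9.44 and 4.69 CPM in TRAP_Chat and 27.6, 35.1 and 29.2 CPM in PreIP_Chat, whereas it had 20.0, 32.7 and 27.0 CPM in TRAP_Snap25 and 25.4, 27.0 and 16.8 CPM in PreIP_Snap25. The difference between the lines was −2.37 ± 0.44 (adjusted p = 0.0130).

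Of 24 ligands and receptors through which other cells address vessels, 4 rose and 5 fell in TRAP_Chat, and 1 rose and 5 fell in TRAP_Snap25. The shares over all tested genes were 12.6% higher and 14.3% lower in TRAP_Chat, and 9.69% higher and 12.7% lower in TRAP_Snap25. Pdgfd, a ligand of the pericyte receptor Pdgfrb, had 30.7, 70.3 and 32.2 CPM in TRAP_Chat and 2.02, 4.26 and 5.18 CPM in PreIP_Chat (3.53 ± 0.49, adjusted p = 0.000140). Its levels were 11.9, 7.76 and 3.97 CPM in TRAP_Snap25 and 4.29, 4.86 and 8.28 CPM in PreIP_Snap25, and its change differed between the lines (3.08 ± 0.65, adjusted p = 0.0297). Pgf, the placental growth factor that binds Flt1, had 21.9, 34.8 and 21.3 CPM in TRAP_Chat and 5.43, 6.81 and 7.51 CPM in PreIP_Chat (1.98 ± 0.36, adjusted p = 0.00111). Both ligands rose without overlap, while the receptor Flt1 was at −1.78 ± 0.90 and Pdgfrb fell. Vegfb, another Flt1 ligand, rose in both pulldowns, in TRAP_Snap25 with an adjusted p of 0.00906 (0.98 ± 0.24). The ligand gene Wnt7a, a barrier-inducing signal, was higher in TRAP_Chat than in TRAP_Snap25 (2.55 ± 0.55, adjusted p = 0.0102). The receptors Notch1 and S1pr1 fell in TRAP_Chat (−2.99 and −2.75) and in TRAP_Snap25 (−2.29 and −2.26).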

How the data were processed

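RNA from spinal cord pulldowns and inputs was amplified with a Nugen Ovation kit and sequenced on a HiSeq2500, per the labels' protocols. The authors deposited raw counts of reads for each gene, not normalized, and the submitters' processing notes name STAR and HTSeq. Neither tool's version, nor the build, nor the strand option is given in the sources at hand. Of its 41736 lines, exact repeats were dropped, leaving 40912 gene IDs.

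Counts were fitted with edgeR 4.0.16 in R 4.3.3: filterByExpr with the groups, TMM scaling, 1 mean per group over all 12 libraries, and quasi-likelihood tests (glmQLFit, glmQLFTest). P-values are two-sided and adjusted by Benjamini-Hochberg over 15905 genes; the threshold was 0.05. SE is the log2 fold change divided by the root of the F statistic. CPM are TMM-scaled. Exon lengths and overlaps came from GENCODE M21, promoters from RefSeq. Alternatives were RLE scaling, TMM without mitochondrial genes, DESeq2 1.42.0, limma voom 3.58.1, other filters, a fit of only the groups compared, a replicate block, and each library left out. The pipeline was tested on simulated data.

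The members and lists were chosen with earlier results of these data known. Named are members past the threshold (up to 5 per role), the highest 3 per role in the inputs, those against their role's direction, and up to 2 genes per related list, comparison and direction with a mean of at least 5 CPM; further values, among them those of Fn1, Esam, Abcb1a, Aldh1a2, Flt1 and Slc6a13 in the inputs, were chosen after they were seen. SDs and SEs cover variation between libraries; the floor of 3 counts covers counting error only.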

Additional observations from a re-analysis of the deposited data

How the results depend on the processing

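No member past the threshold turned its direction under an alternative. Of all values recomputed, 2496 stayed on their side of the threshold, 57 fell below it and 64 passed it. In TRAP_Chat against PreIP_Chat 2 members rose under every alternative that kept the libraries compared, and 12 to 17 fell. Over all tested genes 1975 to 2392 rose and 2135 to 2840 fell under these. With 1 library left out, 1 to 2 members rose and 4 to 15 fell, beside 1191 to 1767 and 1547 to 2199 of all tested genes. In TRAP_Snap25 against PreIP_Snap25, against 1 higher and 9 lower, no filter on low counts gave 15 lower, beside 2472 of 26577 genes. A fit of only the groups compared gave 0 higher, beside 890 of 14673 genes. With 1 library left out it was 0 to 2 members higher and 7 to 13 lower. Over all tested genes it was 675 to 1688 and 1298 to 2321. In TRAP_Chat against TRAP_Snap25, against 4 higher and 0 lower, DESeq2 gave 1 lower, limma voom 2 higher, and no filter 8 higher and 2 lower. A fit of only the groups compared gave 1 higher, and leaving out 1 library 1 to 6 higher and 0 to 1 lower. Over all tested genes the main fit gave 632 higher and 441 lower. DESeq2 gave 746 lower there, limma voom 680 higher, and no filter 1085 higher and 676 lower. The fit of only the groups compared gave 237 higher, and leaving out 1 library 355 to 961 higher and 266 to 574 lower. The inputs and the difference between the lines gave 0 members under all of them. Over all tested genes the inputs gave 0 to 6 higher and 0 to 1 lower. The difference between the lines gave 26 to 292 higher and 26 to 209 lower. The scaling alternatives moved the median of all genes by at most 0.053 on the log2 scale. Causes were not tested.

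The labels number the replicates alike in pulldown and input, and a further label shared by same-numbered libraries is not explained. That further label does not follow the replicate number between lines: replicate 2 of Chat and replicate 1 of Snap25 carry the same one. Deviations of same-numbered libraries correlated at 0.0601, 0.102 and 0.127 in Chat and −0.0365, 0.167 and 0.147 in Snap25. Whether same-numbered libraries share a source cannot be read from correlations this weak. The main fit left the replicate number out. In Chat every library correlated best with its own number, in Snap25 not. With the replicate number as a block 2 members rose and 15 fell in Chat, 1 rose and 13 fell in Snap25, and 0 differed between the lines. Over all 15905 tested genes 1986 rose and 2445 fell in Chat with the block, and 1544 rose and 2119 fell in Snap25. Ly6c1 then missed the threshold in Chat (adjusted p = 0.0536). Passing with the block were, in Chat, Flt1 (−2.70, adjusted p = 0.0196), Col3a1 (−1.39, 0.0247), Fn1 (−1.51, 0.0153) and Col4a2 (−0.89, 0.0371), and in Snap25 Slc2a1 (−1.02, 0.0237), Anpep (−2.07, 0.0302), Col3a1 (−2.21, 0.00366) and Fn1 (−2.32, 0.00270).

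Members at or under the floor of 3 counts in a library rest there on single reads.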
